A study of Mus musculus with 6 samples.

Results

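The mitochondrial ribosomal protein genes were taken as all gene symbols that begin with Mrpl or Mrps followed by a digit. The rule found 77 of the 14051 listed symbols, 48 of them Mrpl and 29 Mrps. All 77 are protein coding, and all 77 passed the filter on low values, which asked for a normalized count of 10 or more in 3 or more libraries and which 11649 genes passed in all. They lie on 17 chromosomes, with 11 on chromosome 11 and 8 on chromosome 17. In the unified naming of ribosomal proteins, 30 members belong to the large subunit and have counterparts in bacteria, 20 belong to the large subunit and are particular to mitochondria, 16 belong to the small subunit and have bacterial counterparts, and 10 belong to the small subunit and are particular to mitochondria. The symbol does not always give the subunit, since Mrps30 and Mrps18a encode proteins that sit in the large subunit, named mL65 and mL66. Mrps36, the remaining member, encodes Kgd4, a subunit of the 2-oxoglutarate dehydrogenase complex, and is counted here only because of its symbol. Mrpl53 was not analysed here.

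Mitochondria keep their own ribosome, which translates the few messages of mitochondrial DNA, all of them for subunits of the respiratory chain and ATP synthase. Its RNAs are encoded in mitochondrial DNA, but all of its proteins are encoded in the nucleus, made in the cytosol and imported, so that building it takes both genomes. T cells enlarge and remodel their mitochondria when they are activated, and mitochondrial translation is needed for sustained respiration and for effector function.

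Bulk RNA-Seq was made from CD8+ T cells of the donor, taken from the recipients' BM. B6D2F1 recipients, a parent-into-F1 model of haploidentical BMT, were given purified CD3+ T cells of B6.CD45.1+ mice. Recipients in the GC-treated group had water-soluble dexamethasone, a synthetic glucocorticoid (GC), at 5 mg/kg/day i.p. from day -1 to day 5, and those in the vehicle-treated group had its carrier, methyl β-cyclodextrin, over the same days. On day 5 an anti-CD45 antibody was given i.v., and donor-type CD45.1+CD8+ T cells that it had labelled, hence those inside vessels, were sorted from pooled BM. Each group has 3 libraries, named GC-treated 1 to 3 and vehicle-treated 1 to 3 by the sample labels, and the sources used here do not say whether each library had a pool of its own, so that p-values measure only the spread between these libraries. No genotype differed between the groups, both of which were irradiated and received the same kind of graft.

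Reads on listed genes numbered 67887570 to 76888118 in the GC-treated libraries (median 73402764) and 60949593 to 64801008 in the vehicle-treated ones (median 61492998). Counting noise was exceeded between all 15 pairs of libraries (chi-square per degree of freedom 19.1 to 167). By this measure GC-treated 1 lay nearer to the vehicle-treated libraries than to the others of its own group. Its values were 19.1, 31.9 and 27.9 with vehicle-treated libraries 1 to 3, and 91.8 and 132 with GC-treated 2 and 3. Cd8a had normalized counts of 63285 to 93850 and Cd4 of 86.3 to 178, so the defining marker of the labelled cell type was present in all libraries. Of 9 tested neutrophil markers, 7 had higher mean normalized counts with the GC label and 8 had positive log2 fold changes, and the 9 took 0.00275% to 0.0187% of the reads in those libraries and 0.000691% to 0.00624% with the vehicle label, with Ltf at 0 in vehicle-treated 1 and Mmp8 at 0 in vehicle-treated 1 and 2. The part of these markers in the results was not tested. Of 11 tested GC target genes, 2 had positive and 9 negative log2 fold changes, with a median of -0.26. The positive ones were Dusp1 (0.47, SE 0.16, with limma's unadjusted p = 0.016 and adjusted p = 0.62) and Errfi1 (0.18, SE 0.14). Dusp1 was at 9343, 8495 and 6076 in GC-treated libraries 1 to 3 and at 6151, 5872 and 5048 in vehicle-treated libraries 1 to 3. Among the negative ones, Tsc22d3, Per1 and Klf9 had -0.23, -0.26 and -0.17 (SE 0.37, 0.25 and 0.51). Fkbp5, a chaperone gene that GC induces in most cells, was at 21148, 16401 and 14780 in the libraries labelled GC-treated 1 to 3 and at 24889, 32705 and 21271 in those labelled vehicle-treated 1 to 3. Il7r and Cxcr4, also known to be induced by GC in T cells, had log2 fold changes of -1.05 (SE 0.22, with limma's unadjusted p = 0.0012 and adjusted p = 0.62) and -1.00 (SE 0.37, with limma's adjusted p = 0.62). For this RNA-Seq the paper lists Cxcr4 among the molecules increased with GC, the opposite of its direction under these labels. The paper also reports more CXCR4 protein on donor T cells of the BM with GC. Other genes that it names from this RNA-Seq, among them S1pr1, Itgae and Clec4e, are not reported here. Whether the labels of the groups were exchanged was not tested, and directions below are those of the labels. In bulk libraries, fewer cells of a type and less RNA per cell cannot be told apart.

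Promoters of 68 of the 77 members were found in RefSeq on GRCm38.p6. Nuclear genes for mitochondrial proteins are known for compact promoters with sites for ETS factors such as GABP, for NRF1 and for YY1, so 5 short motifs were counted on both strands in the 250 bases before and 50 bases after each start. The ETS motif CCGGAAG was found in 24 member promoters (35.3%), against 19.2% of the 9205 promoters of tested genes and 9.12% of all 27025 promoters. The NRF1 motif GCGCATGC was found in 8 (11.8%), against 5.51% and 2.80%, and the YY1 motif AAGATGGCG in 8 (11.8%), against 3.41% and 1.49%. At least 1 of these 3 motifs was found in 34 member promoters (50%), against 26.04% of tested genes and 12.5% of all promoters, and 2 or more in 6 (8.82%), against 2.05% and 0.858%. The E-box CACGTG, which MYC and USF proteins bind, was in 5 (7.35%), against 10.3% and 7.24%. The glucocorticoid receptor half-site AGAACA was in 7 (10.3%), against 12.1% and 19.0%. These are matches of letters, which show neither binding nor its absence, and no test was made of the shares.

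The promoters of the 3 Mrps18 paralogs are shown because these sister genes, which descend from the gene of a single bacterial protein, S18, carry different sets of the motifs. That of Mrps10 is shown because it had the smallest p among the members, and that of Mrpl9 because it was the only member with a negative fold change, both chosen after their values were seen. Each stretch runs 5′ to 3′ on the gene's strand from 250 bases before the start to 30 bases after it, and capitals mark the motifs that lie wholly inside it.
Mrps18a (chr17:46110754-46111033, forward strand, GRCm38.p6): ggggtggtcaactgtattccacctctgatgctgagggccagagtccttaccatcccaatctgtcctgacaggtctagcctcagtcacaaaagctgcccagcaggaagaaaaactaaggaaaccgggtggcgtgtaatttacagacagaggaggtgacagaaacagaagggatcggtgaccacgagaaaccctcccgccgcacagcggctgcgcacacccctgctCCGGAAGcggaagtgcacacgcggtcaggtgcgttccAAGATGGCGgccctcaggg
Mrps18b (chr17:35916411-35916690, reverse strand, GRCm38.p6): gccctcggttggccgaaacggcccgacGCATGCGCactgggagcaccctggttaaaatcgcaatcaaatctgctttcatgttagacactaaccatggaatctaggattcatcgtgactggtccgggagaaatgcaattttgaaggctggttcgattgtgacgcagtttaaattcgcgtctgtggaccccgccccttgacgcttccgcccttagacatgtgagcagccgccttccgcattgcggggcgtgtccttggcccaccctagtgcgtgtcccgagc
Mrps18c (chr5:100798509-100798788, forward strand, GRCm38.p6): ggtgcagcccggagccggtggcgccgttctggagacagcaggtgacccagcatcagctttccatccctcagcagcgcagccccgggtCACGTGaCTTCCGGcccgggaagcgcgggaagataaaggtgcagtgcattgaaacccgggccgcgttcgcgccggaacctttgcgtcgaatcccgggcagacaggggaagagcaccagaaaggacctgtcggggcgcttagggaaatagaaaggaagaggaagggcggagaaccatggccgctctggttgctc
Mrps10 (chr17:47368947-47369226, forward strand, GRCm38.p6): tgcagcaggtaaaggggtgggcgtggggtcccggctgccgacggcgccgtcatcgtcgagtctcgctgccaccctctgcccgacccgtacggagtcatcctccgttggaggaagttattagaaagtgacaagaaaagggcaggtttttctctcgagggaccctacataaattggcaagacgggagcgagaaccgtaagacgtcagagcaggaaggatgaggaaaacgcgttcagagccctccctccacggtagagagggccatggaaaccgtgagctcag
Mrpl9 (chr3:94443086-94443365, forward strand, GRCm38.p6): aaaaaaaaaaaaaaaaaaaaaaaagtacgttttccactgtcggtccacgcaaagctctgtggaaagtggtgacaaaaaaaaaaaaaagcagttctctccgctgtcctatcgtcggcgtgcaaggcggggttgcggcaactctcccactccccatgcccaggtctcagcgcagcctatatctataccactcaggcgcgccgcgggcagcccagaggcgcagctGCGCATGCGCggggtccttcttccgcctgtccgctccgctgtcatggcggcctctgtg

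The Mrps18a stretch holds an ETS motif that begins at position -26 from the start and a YY1 motif that begins at 11, inside the transcript. That of Mrps18b holds an NRF1 motif at -223, and its counted window, which goes on past the printed stretch, has a further NRF1 match at 28 and an ETS motif at 43. The ETS motif was thus found for all 3 paralogs. The Mrps18c stretch holds an E-box at -163 with an ETS motif next to it at -156. Mrpl9 carries a pair of overlapping NRF1 matches at -28 and -26, which together form a palindrome. None of the 5 motifs was found in the window of Mrps10.

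Across the groups, the messages of the mitochondrial ribosome had, for all but 1 member, slightly positive fold changes with the GC label. Log2 fold changes (GC-treated minus vehicle-treated, on the log2(normalized count + 1) scale) were positive for 76 of 77 members (98.7%), against 48.5% of all tested genes. Their median was 0.15, with a range from -0.086 to 0.37, and the median of all tested genes was -0.0079. Standard errors (SE) ran from 0.085 to 0.26, with a median of 0.12. None of the 77 passed limma's test, with Benjamini-Hochberg adjusted p from 0.62 to 0.95, and the share of all tested genes called was 0%. At an unadjusted p under 0.05, limma gave 4 members higher and 0 lower, against 2.12% of all tested genes higher and 5.07% lower. On the recovered reads, edgeR gave 0 members at an adjusted p under 0.05 and 5 higher at the unadjusted one, against 2.28% of all genes. DESeq2 likewise gave 0 members at an adjusted p, where it called 0.0143% of all genes, and 6 higher at the unadjusted one, against 2.41%; both tools gave 0 members lower. The values of the groups did not overlap for 24 members (31.2%), all higher, against 6.4% of all tested genes higher and 6.4% lower.

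**Figure D1:**
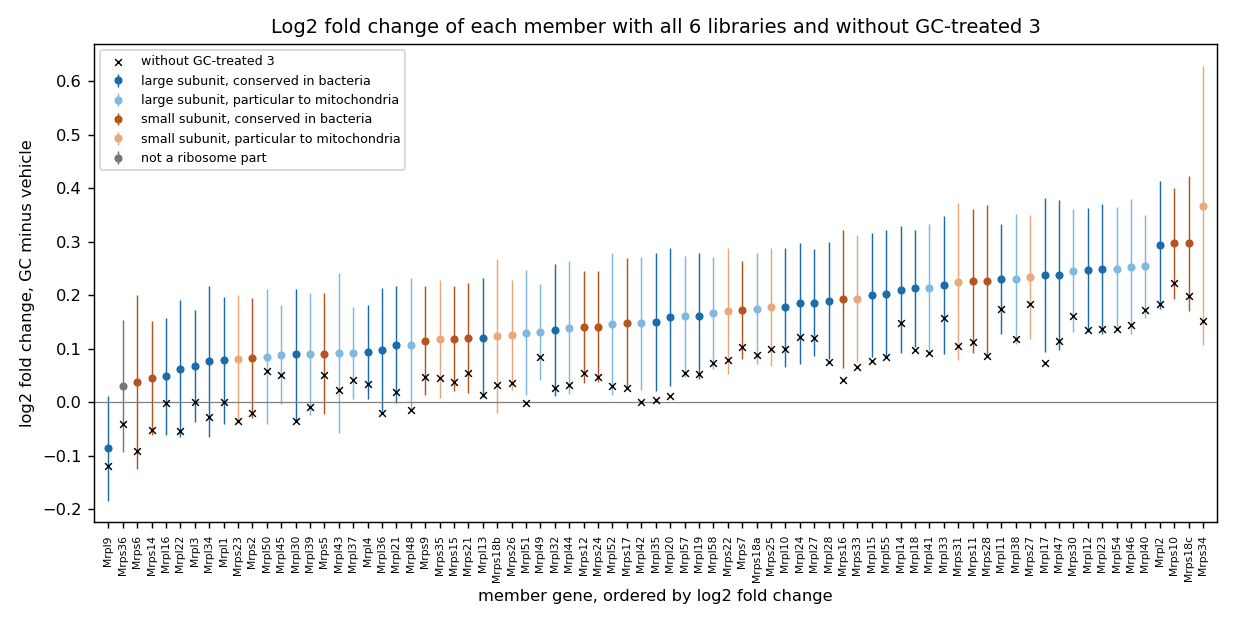
Log2 fold change (GC-treated minus vehicle-treated) of each of the 77 members, ordered by size, with all 6 libraries (points, bars are the standard error from limma, colours are the role classes) and without GC-treated 3 (crosses). With all libraries 76 points lie above 0, and without GC-treated 3 the crosses of 62 members do.

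The 4 members with an unadjusted p under 0.05 came from 3 of the 4 role classes. Mrps10 encodes uS10m, a protein of the head of the small subunit, and lies at chr17:47679620-47692441 on the forward strand of GRCm39. Its normalized count reached 3917, 3745 and 4470 in GC-treated libraries 1 to 3 and 3163, 3220 and 3472 in vehicle-treated libraries 1 to 3, so the groups did not overlap. The log2 fold change was 0.30 (SE 0.10, with limma's unadjusted p = 0.018 and adjusted p = 0.62). Without GC-treated 3 it was 0.22, and the lower of the remaining GC-treated values still lay above all vehicle-treated ones.

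Mrpl40, at chr16:18690767-18696113 on the reverse strand, encodes mL40, a large subunit protein without a bacterial counterpart. It was at 6455, 6788 and 7844 in GC-treated libraries 1 to 3 and at 5933, 5813 and 5878 in vehicle-treated libraries 1 to 3. The vehicle-treated libraries were close together and all lay below the GC-treated ones. The log2 fold change was 0.25 (SE 0.096, with limma's unadjusted p = 0.027 and adjusted p = 0.62), and 0.17 without GC-treated 3. Mrpl40 overlaps Hira on the other strand.

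Mrpl2 encodes uL2m, which lies near the peptidyl transferase centre where peptide bonds are made, at chr17:46957117-46961065 on the forward strand. It was at 3990, 3620 and 4783 in GC-treated libraries 1 to 3 and at 3561, 3173 and 3319 in vehicle-treated libraries 1 to 3, where GC-treated 2 lay only just above vehicle-treated 1. The log2 fold change was 0.29 (SE 0.12, with limma's unadjusted p = 0.037 and adjusted p = 0.62), and 0.18 without GC-treated 3. Mrpl2 overlaps Klc4 on the other strand.

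Mrps18c, at chr5:100946493-100955417 on the forward strand, encodes bS18m, the S18 protein that takes the bacterial place in the small subunit. Its counts were 1884, 1969 and 2361 in GC-treated libraries 1 to 3 and 1704, 1798 and 1542 in vehicle-treated libraries 1 to 3. The groups did not overlap, and the log2 fold change was 0.30 (SE 0.13, with limma's unadjusted p = 0.044 and adjusted p = 0.62). It was 0.20 without GC-treated 3. Its gene overlaps Abraxas1 and Helq on the other strand.

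The other paralogs had smaller fold changes. Mrps18a (mL66, in the large subunit) was at 4020, 3882 and 4737 against 3718, 3813 and 3624 in replicate order, groups that did not overlap, with a log2 fold change of 0.17 (SE 0.10). Mrps18b (mS40, in the small subunit) was at 1212, 1034 and 1356 against 1025, 1063 and 1205, where GC-treated 2 lay among the vehicle-treated values, with 0.12 (SE 0.14). Per kb of canonical transcript the paralogs differed more in level than any did between groups, at mean normalized counts per kb of 4471 for Mrps18a, 892 for Mrps18b and 505 for Mrps18c. These levels rest on canonical transcripts of 0.887 kb for Mrps18a, 1.288 kb for Mrps18b and 3.718 kb for Mrps18c. In counts not divided by length, Mrps18c lay above Mrps18b in all libraries. Whether the fold changes of the paralogs differed from each other was not tested.

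The stalk of the large subunit recruits the translation factors. It is built of uL10m, uL11m and several copies of bL12m, encoded by Mrpl10, Mrpl11 and Mrpl12. Mrpl12 was at 9312, 9663 and 11991 in GC-treated libraries 1 to 3 and at 7892, 8869 and 9221 in vehicle-treated libraries 1 to 3, a log2 fold change of 0.25 (SE 0.12, with limma's adjusted p = 0.62). Mrpl11 was at 2883, 2633 and 3097 against 2366, 2429 and 2534, with 0.23 (SE 0.10). For both genes the groups did not overlap, GC-treated 1 and vehicle-treated 3 being nearly equal for Mrpl12. Mrpl10 was at 4456, 4119 and 5051 against 3739, 4400 and 3894, with 0.18 (SE 0.11), and its groups overlapped. Per kb the stalk members were at 3884 for Mrpl12, 2482 for Mrpl10 and 873 for Mrpl11.

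Among the large subunit proteins with bacterial counterparts, 29 of 30 genes had positive log2 fold changes, with a median of 0.17. The groups of 9 did not overlap, all higher, against 6.4% of all tested genes. The highest levels per kb in this class were those of Mrpl20 (8363 normalized counts per kb), Mrpl28 (7865) and Mrpl23 (5948). Mrpl20, whose bacterial counterpart acts early in assembly, was at 6129, 5968 and 8231 in GC-treated libraries 1 to 3 and at 6329, 5749 and 5931 in vehicle-treated libraries 1 to 3. Here GC-treated 3 alone stood out, and the log2 fold change of 0.16 dropped to 0.012 without it. Mrpl28 was at 7972, 8606 and 10482 against 7701, 7876 and 7997 (0.19, and 0.076 without GC-treated 3). Mrpl23, whose protein lies at the exit of the peptide tunnel, was at 4328, 3923 and 5190 against 4019, 3492 and 3744 (0.25, and 0.14 without GC-treated 3).

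Other proteins of the same class line the path of the new peptide, and are named for these roles outside the naming rule. At the catalytic centre, Mrpl27 was at 4119, 4120 and 4731 against 3995, 3817 and 3575, groups that did not overlap, with a log2 fold change of 0.19 (SE 0.10). Mrpl16, whose bacterial counterpart helps to seat tRNAs there, was at 4107, 3658 and 4295 against 3620, 3730 and 4317, and its highest value was in vehicle-treated 3. At the narrowest point of the tunnel, Mrpl4 was at 9696, 10306 and 11334 against 9802, 9383 and 10132 (0.094), and Mrpl22 at 2526, 2349 and 3105 against 2668, 2593 and 2336 (0.063, and -0.054 without GC-treated 3). The groups of these last 3 genes overlapped.

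The exception in sign was Mrpl9, which encodes bL9m and lies at chr3:94350594-94358437 on the forward strand. In bacteria its counterpart is a long protein at the base of the L1 stalk. It was at 2790, 2785 and 2993 in GC-treated libraries 1 to 3 and at 2946, 3250 and 2903 in vehicle-treated libraries 1 to 3, so it was the only member highest in vehicle-treated 2. The log2 fold change was -0.086 (SE 0.098, with limma's adjusted p = 0.76), within the spread between libraries. It overlaps Oaz3 on the other strand.

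All 20 large subunit genes particular to mitochondria had positive log2 fold changes, with a median of 0.15. The groups of 7 did not overlap, all higher, against 6.4% of all tested genes. Mrpl42 (mL42, chr10:95316559-95346150, reverse strand) had the highest level per kb of all 77 members, 13048 normalized counts per kb. Its counts were 9879, 9218 and 12958 in GC-treated libraries 1 to 3 and 9461, 9698 and 9458 in vehicle-treated libraries 1 to 3. GC-treated 2 was its lowest library and GC-treated 3 its highest, and the log2 fold change of 0.15 was 6.0e-04 without GC-treated 3.

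Mrps30 (mL65) was at 2966, 3521 and 3851 against 2841, 2881 and 2945, groups that did not overlap, with a log2 fold change of 0.25 (SE 0.12). Mrpl54 (mL54) was at 3854, 3959 and 4930 against 3682, 3413 and 3562, also without overlap, with 0.25 (SE 0.11). Mrpl46 (mL46) was at 4136, 4574 and 5447 against 3606, 3853 and 4383, with 0.25 (SE 0.13), and its groups overlapped. Mrpl46 lies at chr7:78424922-78433279 on the reverse strand, and its 5′ end overlaps that of another member, Mrps11 (uS11m), at chr7:78432867-78442739 on the forward strand. Mrps11 was at 1675, 1889 and 2250 against 1589, 1576 and 1776, with 0.23 (SE 0.13).

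Mrpl45 and Mrpl58 are named here for their roles, outside the naming rule. Mrpl45 encodes mL45, which anchors the ribosome to the inner membrane at the tunnel exit, and was at 5267, 4737 and 5401 against 4595, 4977 and 4893 (0.089). Mrpl58 encodes mL62, a hydrolase that also frees stalled peptides, and was at 4184, 4366 and 5180 against 4047, 3998 and 4139 (0.17). The groups overlapped for Mrpl45 and did not for Mrpl58.

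Among the small subunit genes with bacterial counterparts, 16 of 16 had positive log2 fold changes, with a median of 0.14. The groups of 6 did not overlap, all higher, against 6.4% of all tested genes. Mrps7 encodes uS7m, which lies beside the message where it leaves the decoding site, and was at 7385, 7231 and 8436 in GC-treated libraries 1 to 3 and at 6585, 7036 and 6790 in vehicle-treated libraries 1 to 3. Its groups did not overlap, with a log2 fold change of 0.17 (SE 0.092). The highest levels per kb were 7024 for Mrps21, 5120 for Mrps12 and 4542 for Mrps24. Mrps12, whose protein helps to check the match of codon and tRNA, was at 3896, 3638 and 4505 against 3547, 3704 and 3626 (0.14). Mrps24, whose protein uS3m lies at the entry of the message, was at 4705, 4566 and 5622 against 4532, 4367 and 4551 (0.14), with groups that only just did not overlap. Mrps21 was at 3960, 3786 and 4437 against 3898, 3857 and 3451 (0.12), and its groups overlapped. Mrps6, named after its values were seen for the lowest positive value of the class, was at 1492, 1230 and 1769 against 1538, 1570 and 1244, with 0.037 (SE 0.16), and -0.091 without GC-treated 3. Its bacterial counterpart S6 pairs with S18, the protein of Mrps18c.

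All 10 small subunit genes particular to mitochondria had positive log2 fold changes, with a median of 0.17. The groups of 2 genes, Mrps27 and Mrps33, did not overlap, both higher, against 6.4% of all tested genes. Mrps27, which encodes an RNA-binding protein of the pentatricopeptide repeat family, was at 1867, 1724 and 1993 against 1496, 1712 and 1538, with a log2 fold change of 0.23 (SE 0.12). Mrps33 was at 4617, 4604 and 6002 against 4399, 4548 and 4264, with 0.19 (SE 0.12). Per kb, Mrps33 (4009), Mrps23 (3425) and Mrps22 (2115) were the highest of the class.

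Mrps23 was at 4552, 4314 and 5645 against 4430, 4904 and 4310, a log2 fold change of 0.081 that turned to -0.035 without GC-treated 3. Mrps22 was at 2387, 2667 and 3053 against 2308, 2357 and 2506 (0.17), and Mrps25 at 2589, 2722 and 3122 against 2639, 2356 and 2445 (0.18). The groups of all 3 genes overlapped. Mrps34, named after its values were seen, had the largest fold change and the lowest level of the 77 members, 226 normalized counts per kb. It was at 187, 218 and 317 in GC-treated libraries 1 to 3 and at 182, 159 and 208 in vehicle-treated libraries 1 to 3, with a log2 fold change of 0.37 whose standard error of 0.26 was also the largest (adjusted p = 0.65 from limma). The gene lies at chr17:25114072-25116476 and overlaps Nme3, Eme2 and Mapk8ip3.

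Mrps36, the member that is no part of the ribosome, was at 3701, 3170 and 3971 in GC-treated libraries 1 to 3 and at 3766, 3744 and 3098 in vehicle-treated libraries 1 to 3. Its log2 fold change of 0.031 (SE 0.12, with limma's adjusted p = 0.94) was the second lowest of the 77, and turned to -0.040 without GC-treated 3 and to -0.061 without vehicle-treated 3. Its low and high values lay in both groups.

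The kit does not mark strand, and 42 of the 77 members overlap another coding gene in the annotation. Reads there may thus be lost or counted for the other gene. The 42 had a median log2 fold change of 0.16 and the 35 others of 0.15. The groups did not overlap for 15 and 9 of them, all higher, against 6.4% of all tested genes.

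For most members, GC-treated 3 stood apart from the other libraries of both groups. Of the 77 members, 74 had their highest value in GC-treated 3, against 28.4% of all tested genes. The exceptions, named after their values were seen, were Mrpl50, highest in GC-treated 2, Mrpl9 and Mrpl16. GC-treated 3 stood 1.02 to 1.66 times over the mean of the other 5 libraries, with a median of 1.25. Among those 5, the highest value of a member was 1.04 to 1.37 times its lowest, with a median of 1.14. The median deviation of the members from their own mean was 0.27 on the log2 scale in GC-treated 3, where GC-treated 1 and 2 had -0.016 and -0.033 and vehicle-treated libraries 1 to 3 had -0.088, -0.086 and -0.069. The lowest value of a member fell in vehicle-treated 1 for 29, in vehicle-treated 2 for 25, in vehicle-treated 3 for 13, in GC-treated 2 for 7 and in GC-treated 1 for 3 members.

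**Figure D2:**
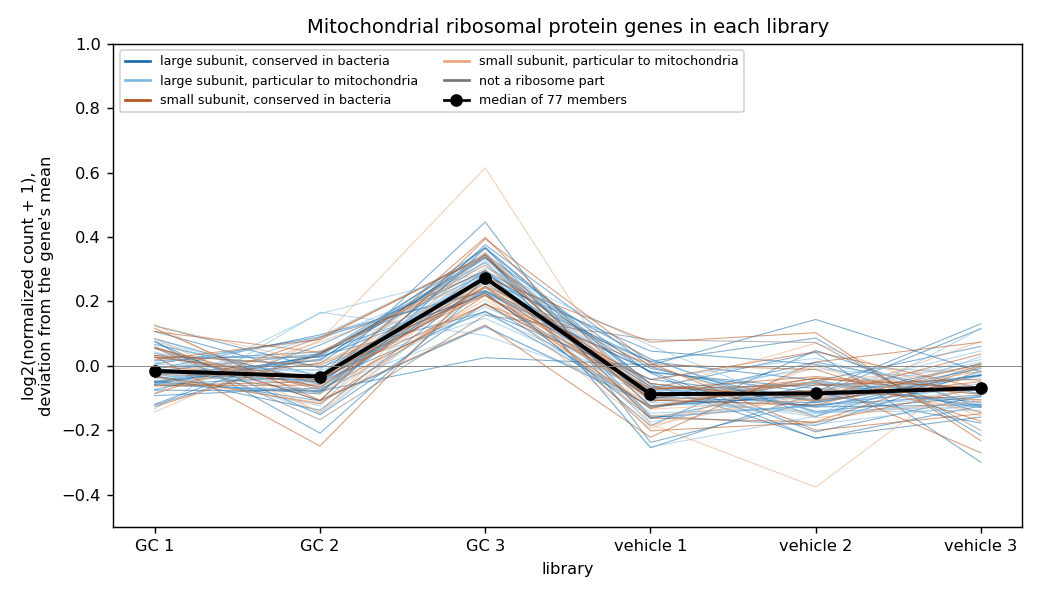
Deviation of each of the 77 members from its own mean over the 6 libraries, on the log2(normalized count + 1) scale, by library. Thin lines are members, coloured by role class, and the black line is their median, which is 0.27 in GC-treated 3 and between -0.088 and -0.016 in the other libraries.

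Without GC-treated 3, 62 of 77 members had positive log2 fold changes, with a median of 0.054 in place of 0.15 and a range from -0.12 to 0.22. The median of all genes was then 6.8e-04, with 50.2% positive. At an unadjusted p under 0.05, 2 of 77 members, Mrps10 and Mrpl40, were above the vehicle-treated group, against 1.25% of all tested genes, and 0 passed limma's adjusted test. Both remaining GC-treated libraries lay above all 3 vehicle-treated ones for 24 members (31.2%), against 9.64% of all tested genes, and below all of them for 1 member, Mrpl9, against 9.43%. Leaving out any other library gave medians of 0.14 to 0.21, with 73 to 76 members positive.

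The role classes shared this pattern. In GC-treated 3 the median deviations were 0.28 and 0.29 for the conserved and the mitochondria-particular proteins of the large subunit and 0.25 and 0.26 for those of the small subunit. The balance between subunits varied by little. Reads of large subunit genes per read of small subunit genes were 2.38, 2.43 and 2.44 in GC-treated libraries 1 to 3 and 2.41, 2.35 and 2.42 in vehicle-treated libraries 1 to 3. Reads of conserved genes per read of genes particular to mitochondria were 1.74, 1.74 and 1.75 in GC-treated libraries 1 to 3, and 1.75, 1.75 and 1.74 in vehicle-treated libraries 1 to 3.

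GC-treated 3 also differed from the other libraries by transcript length. The 11404 tested genes with a known canonical transcript (97.9%) were divided by length into 4 bins of equal size. In GC-treated 3 the median deviation went from 0.18 in the bin of the shortest genes (up to 2.14 kb) through 0.049 and -0.067 to -0.26 in that of the longest (from 5.04 kb), while in the other 5 libraries the bins lay between -0.054 and 0.097. Members are short, with a median of 1.82 kb and 44 of 77 in the bin of the shortest. In GC-treated 3 the members had nearly the same median deviation in each bin, 0.26 for the 44 shortest, 0.29 for 16, 0.30 for 13 and 0.28 for the 4 longest. The 4361 other tested genes inside the interquartile range of member lengths, 1.18 to 3.17 kb, had a median deviation of 0.11 there and a median log2 fold change of 0.060.

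When the trend with length was taken out of each library, the median member deviation in GC-treated 3 was 0.16, where it was 0.27 before. This alternative was chosen after seeing the data. In GC-treated 3, 54 of 77 members were then highest, against 2941 of 11404 genes. The median log2 fold change of the members was 0.11, and 66 of 77 were positive, against 50.4% of all genes. The part that transcript length, RNA quality or library preparation has in the difference, before or after the trend was taken out, was not tested.

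**Figure D3:**
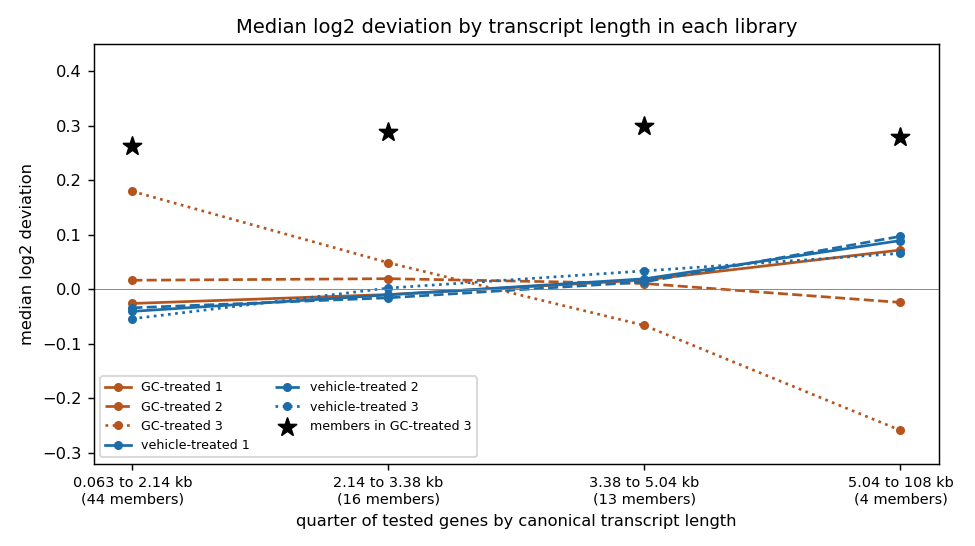
Median log2 deviation of all tested genes in each library (lines) in 4 bins of canonical transcript length, and of the members in GC-treated 3 (stars), with the number of members in each bin under the axis. The line of GC-treated 3 runs from 0.18 in the bin of the shortest genes to -0.26 in the longest, and the stars stay between 0.26 and 0.30.

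All shares of reads are given over the reads on listed genes. Of these, members took 0.463%, 0.452% and 0.557% in GC-treated libraries 1 to 3 (0.491% ± 0.0577, SD, n = 3) and 0.435%, 0.447% and 0.440% in vehicle-treated libraries 1 to 3 (0.441% ± 0.00594, SD, n = 3). The difference was 0.050 percentage points, less than the spread among the GC-treated libraries, and 0.017 without GC-treated 3. The vehicle-treated libraries lay close together, and the lowest GC-treated library was just above the highest of them.

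The messages that this ribosome translates had another pattern over the libraries. The 13 mitochondrially encoded messages took 0.902%, 0.400% and 0.615% of reads in GC-treated libraries 1 to 3 and 0.910%, 1.13% and 0.757% in vehicle-treated libraries 1 to 3. The means were 0.639% ± 0.252 and 0.933% ± 0.188 (SD, n = 3 each), and the groups overlapped. The difference of -0.294 percentage points had p = 0.2 in a two-sided exact permutation test, which cannot go below 0.1 with 3 against 3. It was -0.174 without GC-treated 2 and -0.195 without vehicle-treated 2. All 13 had negative log2 fold changes, from -0.99 to -0.18 with a median of -0.64. At an unadjusted p under 0.05, limma gave 6 lower, against 5.07% of all tested genes, and 0 passed its adjusted test. All 13 were highest in vehicle-treated 2, against 18.9% of all tested genes, and lowest in GC-treated 2, against 1950 of 11649. They are cut from shared precursor RNAs, so they are not independent of each other.

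Named by complex, the messages of cytochrome c oxidase had log2 fold changes of -0.73 for mt-Co1, -0.66 for mt-Co2 and -0.72 for mt-Co3. mt-Co1, the catalytic subunit, was at 144080, 58241 and 84216 normalized counts in GC-treated libraries 1 to 3 and at 145753, 187102 and 118689 in vehicle-treated libraries 1 to 3, so GC-treated 1 lay among the vehicle-treated values. mt-Cytb of complex III had -0.51. The complex I messages had -0.37 for mt-Nd1, -0.64 for mt-Nd2, -0.99 for mt-Nd3, -0.60 for mt-Nd4, -0.73 for mt-Nd4l, -0.65 for mt-Nd5 and -0.48 for mt-Nd6. The ATP synthase messages had -0.34 for mt-Atp6 and -0.18 for mt-Atp8, the values nearest 0.

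Per read of the members there were 1.95, 0.884 and 1.10 mitochondrially encoded reads in GC-treated libraries 1 to 3 and 2.09, 2.53 and 1.72 in vehicle-treated libraries 1 to 3. GC-treated 1 was thus like the vehicle-treated libraries in this ratio, and GC-treated 2 and 3 were below all of them. GC-treated 2, the lowest in mitochondrially encoded reads, was not the library highest in members.

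Nuclear genes for subunits of oxidative phosphorylation (OXPHOS), which form complexes with the products of this ribosome, had a pattern like that of the members. Of 80 tested genes, 78 had positive log2 fold changes, against 48.5% of all tested genes, with a median of 0.14. In GC-treated 3, 76 were highest, against 28.4% of all tested genes. The groups of 22 did not overlap, all higher, against 6.4%. At an unadjusted p under 0.05 there were 4 higher, against 2.12% of all tested genes, and 0 passed limma's adjusted test. They took 1.59%, 1.56% and 1.85% of reads in GC-treated libraries 1 to 3 and 1.54%, 1.54% and 1.52% in vehicle-treated libraries 1 to 3. Ndufb7, a complex I subunit, was at 11160, 13062 and 15119 against 11013, 10228 and 10728 (0.29), and Sdhb, the iron-sulfur subunit of complex II, at 27000, 30659 and 34212 against 25708, 24616 and 26946 (0.24).

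The proteins of the cytosolic ribosome differed from this. Of 52 genes, 28 had positive log2 fold changes with a median of 0.010, and 0 had an unadjusted p under 0.05. They shared the high values of GC-treated 3, where 46 of 52 were highest, against 28.4% of all tested genes. In GC-treated 2, however, 48 were lowest, against 1950 of 11649 tested genes. Their share of reads was 1.84%, 1.43% and 2.01% in GC-treated libraries 1 to 3 and 1.74%, 1.80% and 1.64% in vehicle-treated libraries 1 to 3. Rps6 was at 50393, 46551 and 60959 against 47116, 46648 and 47237 (0.15), and Rplp0 at 95993, 74952 and 105338 against 90116, 93894 and 88022 (0.0084).

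**Figure D4:**
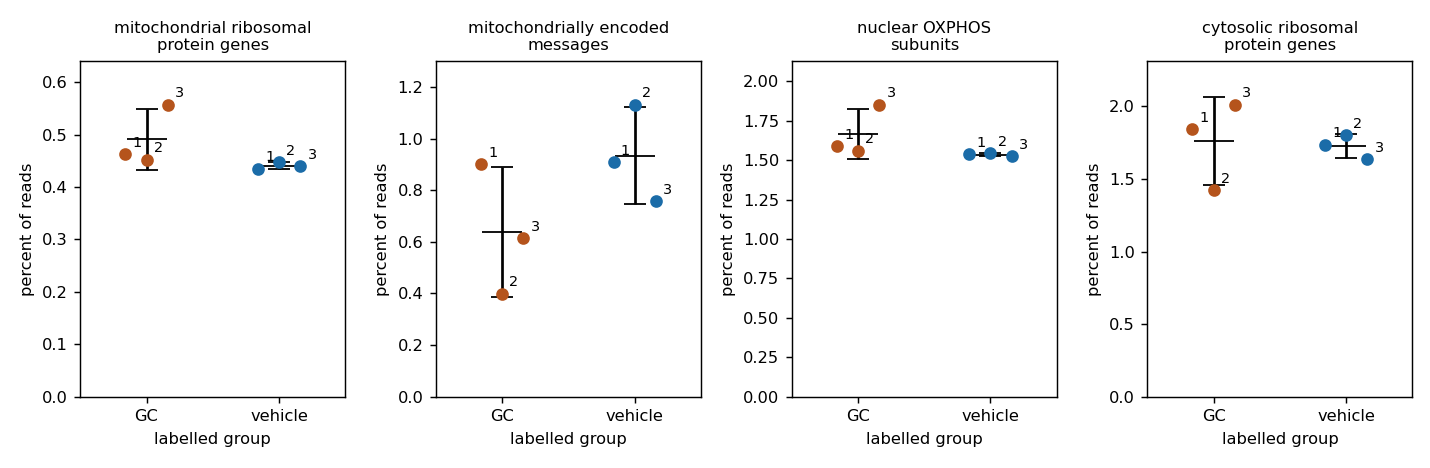
Percent of the reads on listed genes of each library in members, in mitochondrially encoded messages, in nuclear OXPHOS subunit genes and in cytosolic ribosomal protein genes, against the labelled group. Each numbered point is a library, and the lines give mean and SD over the 3 libraries of a group. GC-treated 3 has the highest share of members (0.557%), OXPHOS subunits (1.85%) and cytosolic ribosomal proteins (2.01%), and vehicle-treated 2 the highest share of mitochondrially encoded messages (1.13%).

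Other lists hold genes that serve the mitochondrial ribosome without bearing its family names, and how they differ from the members was not tested. Of 5 subunits with other symbols, all 5 had positive log2 fold changes, with a median of 0.13. Among them Dap3, a GTP-binding protein of the small subunit, was at 7352, 5920 and 7590 against 6231, 6555 and 6149 (0.13), Aurkaip1 at 6844, 7176 and 8515 against 6681, 6900 and 6937 (0.13), and Gadd45gip1 at 304, 275 and 376 against 269, 271 and 268 (0.23). Of 30 genes of ribosome assembly and rRNA modification, 20 were positive and 10 negative, with a median of 0.065. At an unadjusted p under 0.05, 1 was higher, against 2.12% of all tested genes. That gene was Mtg1, a GTPase that acts late in assembly of the large subunit, at 2398, 2262 and 2826 against 1988, 2040 and 2036 (0.30, SE 0.11, with limma's adjusted p = 0.62). Ybey, an endonuclease needed for the small subunit, was at 544, 463 and 550 against 614, 724 and 627 (-0.34). The groups of Mtg1 and of Ybey did not overlap, in opposite directions.

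Of 15 tested translation factors, 10 were positive and 5 negative with a median of 0.018, and 0 had an unadjusted p under 0.05. Tufm, the elongation factor that brings tRNAs to the ribosome, was at 13398, 12739 and 15837 against 12691, 12968 and 14042 (0.075). Taco1, which promotes translation of the mt-Co1 message, was at 798, 484 and 577 against 885, 932 and 704 (-0.46), and Rmnd1 at 1888, 1926 and 1926 against 1610, 1774 and 1635 (0.19). Of 20 genes for charging mitochondrial tRNAs, 9 were positive and 11 negative with a median of -0.0081, and 0 had an unadjusted p under 0.05. Aars2 had -0.25, Rars2 0.21 and Lars2 -0.27.

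Of 18 genes of mitochondrial DNA transcription and replication, 11 were positive and 7 negative with a median of 0.070. Hsd17b10, a subunit of the enzyme that cuts tRNAs from the precursors, was the only 1 with an unadjusted p under 0.05, at 2973, 2909 and 3232 against 2648, 2683 and 2450 (0.23, adjusted p = 0.62 from limma). Ssbp1, which coats single-stranded mitochondrial DNA, had 0.21, and Polg, the DNA polymerase, -0.17. Of 12 tested regulators of nuclear genes for mitochondria, 3 were positive and 9 negative with a median of -0.10. Nrf1, whose site was counted in the promoters above, was at 11122, 11534 and 11227 against 11203, 11511 and 11371 (-0.0087), nearly level over all 6 libraries. Myc was at 8573, 8422 and 9183 against 6870, 7102 and 8890 (0.20), and Gabpb2, a partner of the ETS factor GABPA, at 3848, 3378 and 2267 against 3903, 4582 and 3308 (-0.34). None of these 12 had an unadjusted p under 0.05. Member genes with the ETS motif had a median log2 fold change of 0.15 and those without it also of 0.15.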

How the data were processed

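Per the authors' methods, STAR placed the reads on GRCm39, summarizeOverlaps counted them over Gencode genes with its default settings, and DESeq2 was used; tool versions are not given in these sources. The 1 table that was deposited holds a normalized signal, read counts after division by a size factor per library. In each library 100% of values were whole multiples of 1 read within 0.001, so reads were recovered.

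Log2(value + 1) was tested with limma 3.58.1 in R 4.3.3, with a mean-variance trend and Benjamini-Hochberg adjustment, over the 11649 genes at 10 or more in 3 or more libraries. Because values were normalized, edgeR 4.0.16 and DESeq2 1.42.0 on the recovered reads were alternatives. The tests were also run on data simulated from the means and dispersions of these libraries. The members and gene lists were chosen with earlier results of these data known. Members were named by the highest level per kb and the smallest p in each role class, by an unadjusted p under 0.05, and as Mrps18 paralogs, stalk proteins and Mrps36. In other lists up to 3 genes with the smallest p and the highest gene could be named. Gene positions and transcript lengths are from Gencode M39, a later annotation of the same build, which holds 13727 of the 14051 symbols. Other settings and leaving out each library are described in the closing section.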

Additional observations from a re-analysis of the deposited data

How the results depend on the processing

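The median member log2 fold change of 0.15 stayed positive under all settings run, from 0.054 without GC-treated replicate 3 to 0.21 without GC-treated replicate 2. Limma called 0 genes higher and 0 lower. DESeq2 called 2 lower, limma without a trend called 1 lower, and leaving out 1 library gave 0 to 2 higher and 0 to 43 lower, the highest counts without GC-treated replicate 1. No setting called a member. Members higher at an unadjusted p under 0.05 numbered 4, or 2 without a trend and 0 to 13 when 1 library was left out (13 without GC-treated replicate 1, 8 and 2 without replicates 2 and 3, and 1, 0 and 2 without vehicle-treated replicates 1, 2 and 3). The shares of all genes higher at that p were 8.34%, 1.82% and 1.25%, and 0.953%, 0.678% and 2.31%, in the same order, and 1.98% without a trend. The replicate block gave 5 and called 0 genes. Deviations of libraries with the same number correlated at 0.063, -0.14 and 0.13, and the numbers were not taken to pair the samples. Removing the length trend and scaling reads by TMM factors before limma were chosen after seeing the data. With the length trend removed Mrps21 turned to -0.029, Mrps23 to -0.017, Mrps36 to -0.079, Mrps6 to -0.078, Mrpl22 to -0.072 and Mrpl16 to -0.059. With 1 library left out, Mrps23 ran from -0.035 to 0.159, the negative value without GC-treated replicate 3, and Mrps36 from -0.061 to 0.12, at -0.040 without GC-treated replicate 3 and -0.061 without vehicle-treated replicate 3. Mrps6 ran from -0.091 to 0.17, Mrpl22 from -0.054 to 0.15, each lowest without GC-treated replicate 3, and Mrpl16 from -5.9e-04 to 0.13, below 0 when either GC-treated replicate 3 or vehicle-treated replicate 1 was left out; Mrps6 was at -0.070 without vehicle-treated replicate 3. What causes these changes was not tested. The other 31 of 37 named members kept their sign under the 13 alternatives run for single genes. Leaving out pseudogenes, or mitochondrial genes that code for no protein, was not run because none is listed. At 60949593 reads or more a library, the spread between libraries was larger than counting noise.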
